A study of Mus musculus with 9 samples.

Results

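RNA from tissue labelled mesencephalon (midbrain) of mice given MPTP together with PF4 was compared with that of saline controls, over all genes and library by library. The comparison used 6 of the 9 samples of the study: MPTP+PF4 replicates 1 to 3 and Control replicates 1 to 3, each a separate C57BL/6 mouse. Controls carry the treatment label saline. The MPTP+PF4 mice received MPTP into the peritoneal cavity over 7 days and PF4 into a vein every 3 days. The remaining 3 samples, from mice given MPTP, entered the model to estimate the spread between animals, and their values are given beside the leading genes at the end. The 2 groups differ in both agents at once, so an effect of PF4 and an effect of MPTP cannot be told apart here; none of the groups used here received PF4 without MPTP. The sources used here give no dose, sex or age. Out of 28991 genes in the count table, 17285 passed the low-count filter and were tested.

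MPTP is a neurotoxin whose metabolite is taken up through the dopamine transporter into dopaminergic neurons, where it inhibits complex I of the mitochondrial respiratory chain. PF4 (platelet factor 4, CXCL4) is a chemokine stored in platelet granules. Bone morphogenetic proteins (BMPs) are secreted ligands that act through paired type I and type II receptor kinases and SMAD proteins. Extracellular antagonists such as chordin and noggin bind the ligands before they reach a receptor. Parvalbumin, encoded by Pvalb, is a calcium-binding protein of fast-firing neurons.

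Before any comparison of groups, the libraries were checked against the labelled tissue. Defining markers of midbrain dopaminergic neurons were high in Controls 2 and 3 and in MPTP+PF4 2 and low in the other libraries, where Slc6a3 and En1 were at or near 0 and Th, Slc18a2 and Ddc were lower but well detected. Slc6a3, the dopamine transporter, had 0.393, 574 and 526 CPM (counts scaled to the library total after TMM normalization) in Controls 1 to 3 and 0.338, 102 and 0.402 CPM in MPTP+PF4 1 to 3. En1, a transcription factor of the embryonic midbrain, had no counts in Control 1, MPTP+PF4 1 and MPTP+PF4 3, against 7.23, 13.7 and 3.78 CPM in Control 2, Control 3 and MPTP+PF4 2. Drd1, the dopamine receptor of striatal projection neurons, ran the opposite way, at 158, 4.04 and 4.80 CPM in the controls and 218, 7.74 and 398 CPM with MPTP+PF4. The split crosses the groups, with 2 of 3 controls on one side and 2 of 3 MPTP+PF4 libraries on the other. Control 1, MPTP+PF4 1 and MPTP+PF4 3 therefore go against their mesencephalon label by these markers. Named genes and gene lists that lead a result below are given with all libraries, with Control 2, Control 3 and MPTP+PF4 2 left out (the low-Slc6a3 libraries alone), and with Control 1, MPTP+PF4 1 and MPTP+PF4 3 left out (the high-Slc6a3 libraries alone). Both settings were chosen after seeing the data. Single members of a list are given with all libraries only. With 1 library in one of the groups, each setting borrows its estimate of spread from the remaining libraries of its fit. In both settings these include MPTP 1 to 3.

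Library totals lay between 32216850 and 36039211 counts, with 16303 to 16797 genes reaching 10 counts. A transcript with fewer than 3 counts, equal to 0.0832 to 0.0931 CPM depending on the library, could not be told from 0; this limit covers counting error only. Mitochondrial transcripts took 10.1% to 14.2% of counts. Haemoglobin transcripts took 0.628% in Control 2 and 0.00851% to 0.0792% in the other libraries.

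No gene passed an adjusted p of 0.05 in edgeR's quasi-likelihood test with Benjamini-Hochberg adjustment (0 of 17285, 0%), and the smallest adjusted p was 0.268. At an unadjusted p under 0.05, edgeR listed 1080 genes as higher with MPTP+PF4 (6.25% of genes tested) and 2091 as lower (12.1%). Without Control 1, edgeR passed 4539 genes (2194 higher, 2345 lower), and leaving out any other single library of the 6 left the count at 0. Once Control 1 is out, both controls are high in Slc6a3 while MPTP+PF4 1 and MPTP+PF4 3 are low. The split then largely follows the groups, and sampled tissue and treatment cannot be told apart in the 4539 genes. With all libraries, limma voom with weights per sample passed 9395 genes. Its log2 fold change of Slc6a3 was −9.39, against −3.42 in edgeR with all libraries and −9.94 without MPTP+PF4 2. Its median over the striatal projection neuron list was 4.96, against 1.57 in edgeR with all libraries and 4.78 without Control 1. The part of the Slc6a3 split in the 9395 genes was not tested. DESeq2 passed 5 genes higher (0.0291%) and 5 lower (0.0291%). The 10 DESeq2 genes, named here because of their result, were Chrdl1, Wnk3, Tlr3, NewGene_11393 and NewGene_8184 higher, and Pvalb, Rpl17, Hmga1b, Gm20547 and NewGene_5002 lower. NewGene_11393 was at 3.10 CPM (scaled to library totals) in MPTP+PF4 3 and at 0 in the other libraries of the comparison, so its groups overlapped. Gm20547 was at 0.0561, 3.07 and 2.75 CPM in Controls 1 to 3 and at 0 with MPTP+PF4, with Control 1 under 3 counts. The groups did not overlap, all 3 libraries of one lying above all 3 of the other, for 970 genes higher (5.61%) and 1172 lower (6.78%). The authors' deposited table lists 242 genes as higher in MPTP+PF4 and 700 as higher in control, at a DESeq2 p of 0.05 and a 2-fold change by its header. Which group its up and down refer to was read from the counts, so agreement in direction with the edgeR fit is not a check of either.

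**Figure D1:**
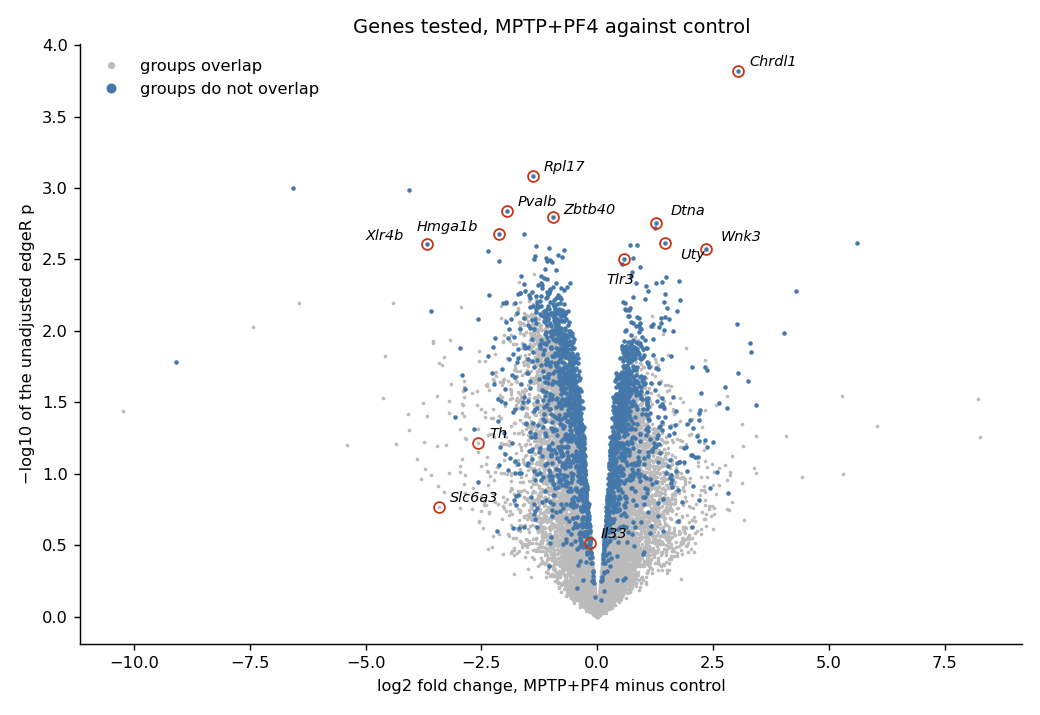
Log2 fold change (MPTP+PF4 minus control, horizontal) against −log10 of the unadjusted edgeR p (vertical) for the 17285 genes tested, with genes named in the text circled and genes whose groups do not overlap in blue. Chrdl1 stands highest, with a log2 fold change of 3.04, while Slc6a3 and Th sit low in the plot at −3.42 and −2.57 because their libraries overlap.

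Chrdl1 (ENSMUSG00000031283, chromosome X, 143285674 to 143394262, minus strand, GRCm38) had the smallest p of all genes. It encodes chordin-like 1, a secreted BMP antagonist that astrocytes release and that acts on synapse maturation in mice. It was at 2.05, 0.994 and 0.882 CPM in Controls 1 to 3 and at 13.5, 6.94 and 11.9 CPM in MPTP+PF4 1 to 3. Every MPTP+PF4 library lay above every control, and the gap separated the libraries on both sides of the Slc6a3 split. The log2 fold change was 3.04 (SE 0.484, unadjusted p = 0.000152, adjusted p = 0.268 in edgeR). It was 2.63 in the low-Slc6a3 libraries alone, 2.88 in the high-Slc6a3 libraries alone, and 2.82 to 3.53 when each library was left out in turn. By the authors' FPKM, which divides by transcript length, Chrdl1 was at 0.310 ± 0.1499 in controls and 2.56 ± 0.747 with MPTP+PF4 (SD, n = 3 each). Permuting the 6 libraries, in an exact two-sided test of CPM, gave p = 0.1 for Chrdl1, Rpl17 and Pvalb, the smallest value that 3 against 3 allows (adjusted p = 0.267 over 8 genes so tested). Any gene without overlap gets this value, and these genes were named with earlier results of these data known. The permutation therefore adds no support for them.

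Other members of BMP signalling were described from a list of 32 genes, of which 30 were tested. Their median log2 fold change was 0.07, beside −0.0045 over all genes tested, with 19 members above 0 and 11 below. It was 0.17 in the low-Slc6a3 libraries alone, 0.13 in the high-Slc6a3 libraries alone, and 0.05 to 0.18 when each library was left out in turn. None passed an adjusted p of 0.05 in edgeR. The groups did not overlap for 7 members, all higher (23.3% of the list, against 12.4% of all genes in either direction), among them Chrdl1, Bmp2, Bmpr1a, Bmpr1b, Bmpr2 and Id2. The Chrdl1 direction was not shared by every antagonist. Chordin itself (Chrd) was at 4.26, 9.91 and 20.8 CPM in controls, against 6.15, 5.93 and 4.08 CPM with MPTP+PF4, and noggin (Nog) at 3.62, 5.00 and 6.73 CPM against 5.44, 6.22 and 1.91 CPM. Both overlapped between groups, and Chrd had a log2 fold change of −1.11 (SE 0.497).

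Among the receptors, the type II receptor Bmpr2 had 222, 124 and 156 CPM in controls, against 235, 227 and 349 CPM with MPTP+PF4 (log2 fold change 0.69, SE 0.250). The type I receptor Bmpr1a was at 79.6, 50.2 and 49.2 CPM against 81.2, 84.7 and 112 CPM (0.64, SE 0.224). In both, Control 1 came close to the lowest MPTP+PF4 library. Among target genes of the pathway, the Id transcription regulators went different ways. Id2 was at 61.5, 43.8 and 59.98 CPM in controls, against 80.4, 81.4 and 64.7 CPM with MPTP+PF4, whereas Id1 had a log2 fold change of −1.09 (SE 0.389) with overlapping groups. Id1 by FPKM was 31.4 ± 17.4 in controls and 14.9 ± 2.54 with MPTP+PF4 (SD, n = 3 each).

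Pvalb (ENSMUSG00000005716, chromosome 15, 78191114 to 78206400, minus strand, GRCm38) was lower with MPTP+PF4. It was at 101, 373 and 179 CPM in Controls 1 to 3 and at 64.5, 45.02 and 59.7 CPM in MPTP+PF4 1 to 3. The MPTP+PF4 libraries were close to each other and all lay below Control 1, while the controls spread over a wide range. The log2 fold change was −1.95 (SE 0.429, unadjusted p = 0.00146, adjusted p = 0.268 in edgeR). Its size depended on which libraries were compared, at −0.70 in the low-Slc6a3 libraries alone and −2.62 in the high-Slc6a3 libraries alone.

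Of 18 tested genes of parvalbumin and fast-firing neurons, 14 were below 0 and 4 above, with a median of −0.62 (−0.37 without Control 2, −0.27 in the low-Slc6a3 and −0.40 in the high-Slc6a3 libraries alone). The groups did not overlap for Pvalb and Cplx1, both lower (11.1% of the list, against 12.4% of all genes in either direction and 6.78% lower), and none passed an adjusted p of 0.05. Cplx1, complexin 1 of the synaptic release machinery, was at 664, 1566 and 1416 CPM in controls, against 611, 604 and 523 CPM with MPTP+PF4, with a log2 fold change of −1.07 (SE 0.294). Synaptotagmin 2 (Syt2), a calcium sensor of fast synapses, was at 92.0, 314 and 214 CPM in controls, against 86.2, 107 and 84.4 CPM with MPTP+PF4. Kcnc1, a potassium channel subunit that allows fast firing, was at 137, 159 and 172 CPM against 107, 187 and 97.2 CPM, so that the groups overlapped. Kcna2, another potassium channel gene of the list, was at 5.24 CPM in MPTP+PF4 2 alone and at 152 to 441 CPM in the other 5 libraries. In such bulk tissue, fewer cells of a type and less RNA per cell cannot be told apart.

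**Figure D2:**
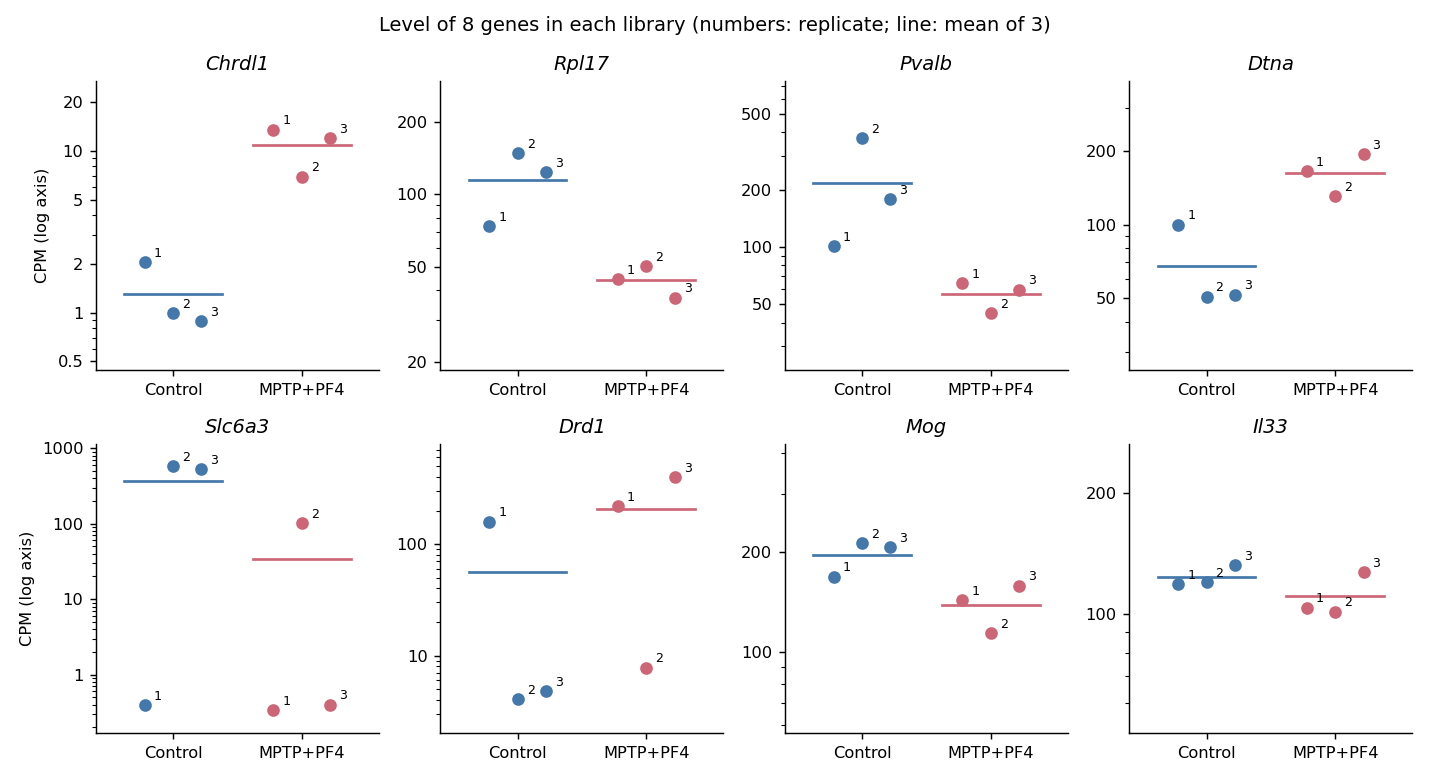
CPM on log axes for 8 genes, with 1 point per library numbered by replicate and a line at the mean of 3. Chrdl1 and Dtna are higher and Rpl17, Pvalb and Mog lower in all 3 MPTP+PF4 libraries than in any control, whereas Slc6a3 and Drd1 split the libraries across the groups and Il33 overlaps.

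Rpl17, which encodes a protein of the large ribosomal subunit, had the smallest p among the lower genes. It was at 73.5, 148 and 124 CPM in Controls 1 to 3 and 44.2, 50.2 and 37.1 CPM in MPTP+PF4 1 to 3, with no overlap. The log2 fold change was −1.39 (SE 0.281, unadjusted p = 0.000828, adjusted p = 0.268 in edgeR), −0.85 in the low-Slc6a3 libraries alone and −1.44 in the high-Slc6a3 libraries alone. Ribosomal protein genes have many processed copies in the genome, and the sources used here do not say how the authors' counting split reads among copies, so the level of any single one is uncertain.

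Cytosolic ribosomal protein genes lay to the same side as Rpl17. Of 79 tested, 78 were below 0 and 1 above, with a median log2 fold change of −1.04, and 67 had an unadjusted p under 0.05 in edgeR in the lower direction, beside 12.1% of all genes. None passed an adjusted p of 0.05. The groups overlapped for most of them, and only Rpl17, Rpsa, Rps15, Rps27 and Rps29 were lower without overlap (6.33% of the list, against 6.78% of all genes lower without overlap). The mean level of the list, as log2(CPM + 0.5), was 6.92, 8.54 and 8.004 in Controls 1 to 3 and 7.06, 7.08 and 6.70 in MPTP+PF4 1 to 3. Control 1 thus lay within the MPTP+PF4 range and Controls 2 and 3 above it. The median was −0.01 in the low-Slc6a3 libraries alone, −1.29 in the high-Slc6a3 libraries alone and −0.58 without Control 2. Rps15, of the small subunit, was at 284, 1092 and 752 CPM in controls, against 269, 263 and 178 CPM with MPTP+PF4, where Control 1 came close to 2 MPTP+PF4 libraries.

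Mammalian ribosomal protein transcripts typically begin in a run of pyrimidines at the start of transcription. The starts of Rps27, Rpsa and Rps15 are shown as examples of genes that were lower without overlap between groups and have a RefSeq promoter entry. Rpl17 and Rps29 were also lower without overlap, but their starts are not shown. Whether they have such an entry is not given here. Each line gives 20 bases before to 20 bases from the start (RefSeq, GRCm38.p6), 5′ to 3′ on the gene's strand, with the motif CTTTC in capitals where it is found. They are chr3:90213629-90213668 (minus strand) for Rps27, chr9:120127746-120127785 (plus) for Rpsa and chr10:80292411-80292450 (plus) for Rps15.
Rps27: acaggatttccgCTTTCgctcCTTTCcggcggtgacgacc
Rpsa: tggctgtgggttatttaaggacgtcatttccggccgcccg
Rps15: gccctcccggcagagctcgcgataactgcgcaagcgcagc
CTTTC, searched on both strands from 10 bases before to 20 bases after each start, was found on the gene's strand in 22.1% of 68 promoters of 58 matched ribosomal protein genes and in 3.74% of all 32851 promoters. On the opposite strand the shares were 4.41% and 3.65%. Among these lines only Rps27 holds the motif, and it holds it more than once. A match describes the letters in this window and is not a measurement of any factor.

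Nuclear genes of oxidative phosphorylation lay to the same side. Of 74 tested, 67 were below 0, with a median of −0.64, and none passed an adjusted p of 0.05. In 6 members every MPTP+PF4 library lay below every control (8.11%, against 12.4% of all genes in either direction and 6.78% lower). Uqcrq, a subunit of complex III, was at 55.7, 218 and 134 CPM in controls, against 54.9, 49.7 and 33.9 CPM with MPTP+PF4, so that Control 1 and MPTP+PF4 1 nearly met. The median was −0.09 in the low-Slc6a3 libraries alone, −0.72 in the high-Slc6a3 libraries alone and −0.29 without Control 2. The 13 mitochondrially encoded genes had a median of 0.21, with 10 above 0, and none of their groups separated.

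Expression differences followed the GC content of the transcript. Among 15382 tested genes with a GENCODE transcript (89% of those tested), median GC was 49.8%. It was 43.1% for the genes higher at an unadjusted p under 0.05 and 55.2% for those lower, and median length was 4874 and 2242 bases in these sets, against 3395 bases overall. The median log2 fold change ran from 0.46 at 35% to 40% GC to −0.56 above 60%. The libraries differed in this lean: genes above 60% GC lay 0.50 and 0.35 above their mean over the 6 libraries in Controls 2 and 3, but −0.14 in Control 1, −0.12 and −0.15 in MPTP+PF4 1 and 2, and −0.49 in MPTP+PF4 3 (log2). Correcting each library for GC content and length, an alternative chosen after seeing the data, left Chrdl1 at 2.71, Pvalb at −1.42 and Rpl17 at −1.21. The same correction moved the median of the ribosomal list from −1.04 to −0.46 and that of oxidative phosphorylation from −0.64 to −0.14. Its part in each result was not tested further.

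**Figure D3:**
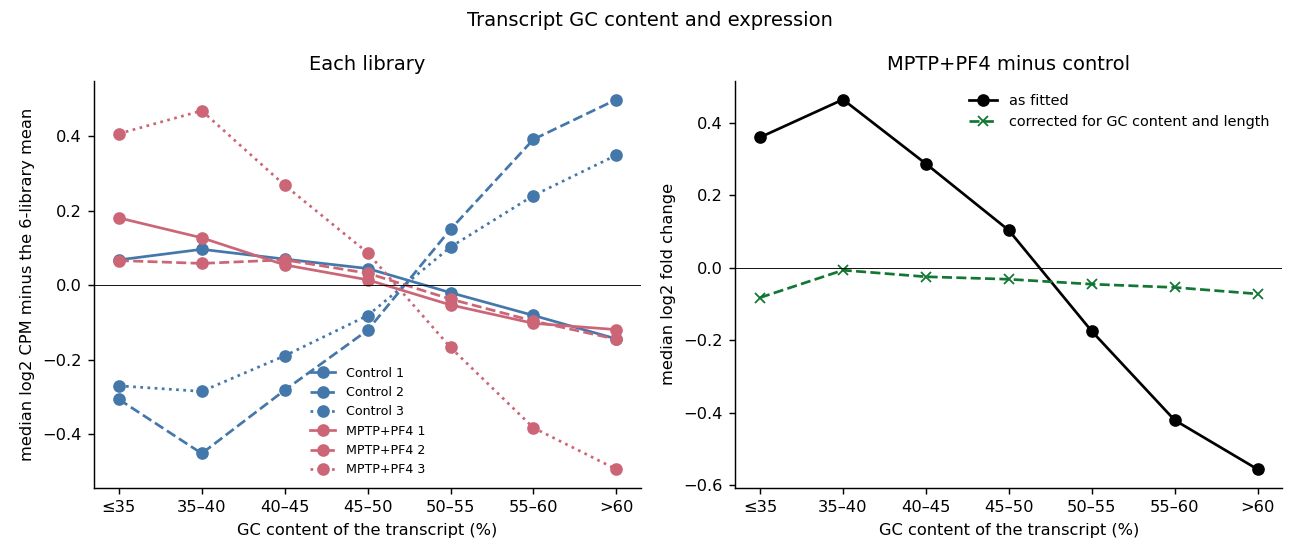
Left, the median log2 CPM of genes in 7 bins of transcript GC content, relative to the mean of the 6 libraries, for each library. Right, the median log2 fold change per bin as fitted and after correction for GC content and length; the fitted line runs from 0.46 to −0.56 between 35% to 40% GC and above 60%, and the corrected line stays between −0.08 and −0.01.

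Among the genes with the smallest p in the higher direction, Dtna followed Chrdl1. It encodes dystrobrevin alpha, a component of the dystrophin-associated complex at astrocyte endfeet. It was at 100.1, 50.5 and 51.6 CPM in controls, against 165, 131 and 194 CPM with MPTP+PF4, a log2 fold change of 1.28 (SE 0.290). Gpr139, an orphan receptor of the habenula and striatum, was at 9.20, 6.63 and 7.61 CPM in controls, against 19.8, 14.7 and 21.5 CPM with MPTP+PF4 (1.26, SE 0.289). Wnk3, a kinase that regulates chloride cotransporters, was at 3.79, 1.21 and 3.03 CPM in controls, against 15.1, 17.3 and 8.40 CPM with MPTP+PF4 (2.34, SE 0.568). In all 3 genes every MPTP+PF4 library lay above every control. In the low-Slc6a3 libraries alone their log2 fold changes were 0.84, 1.17 and 1.64, and in the high-Slc6a3 libraries alone 1.35, 1.05 and 3.02.

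Tlr3, the receptor for double-stranded RNA, had tight groups. It was at 13.3, 12.4 and 12.5 CPM in controls, against 18.6, 18.8 and 19.7 CPM with MPTP+PF4, a log2 fold change of 0.58 (SE 0.144). It was 0.52 in the low-Slc6a3 and 0.59 in the high-Slc6a3 libraries alone, and 0.13 after the GC and length correction. Luzp2 (log2 fold change 0.87), Slc6a15, a neutral amino acid transporter of neurons (0.71), Rfx4, a transcription factor of astrocytes and neural progenitors (0.77), and Nadk2, the mitochondrial NAD kinase (0.53), completed the autosomal genes of this set. After the same correction they were 0.38, 0.37, 0.72 and 0.20, in that order. Uty, on the Y chromosome, was at 11.7, 5.12 and 6.12 CPM in controls, against 18.8, 15.2 and 29.5 CPM with MPTP+PF4, and was therefore detected in all 6 mice. How reads shared with its X-linked homologue were counted is unknown.

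In the lower direction, Nfkbil1, which lies in the major histocompatibility region, was at 6.62, 19.1 and 16.6 CPM in controls, against 4.86, 5.45 and 3.75 CPM with MPTP+PF4 (log2 fold change −1.59, SE 0.371). In the low-Slc6a3 libraries alone it was −0.62, in the high-Slc6a3 libraries alone −1.72, and after the GC and length correction −0.81. Hmga1b was at 9.84, 28.5 and 18.4 CPM against 2.61, 7.48 and 3.01 CPM (−2.11, SE 0.493). It is a near-identical copy of Hmga1, a chromatin protein gene, so its level is uncertain. It was −1.81 in the low-Slc6a3 and −1.65 in the high-Slc6a3 libraries alone. Notum, a secreted enzyme that inactivates WNT proteins, was at 2.83, 3.19 and 2.73 CPM in controls, against 1.35, 1.00 and 1.14 CPM with MPTP+PF4 (−1.32, SE 0.319), with −1.18 in the low-Slc6a3 and −1.56 in the high-Slc6a3 libraries alone. Unlike most genes of this set, Notum was as high in Control 1 as in the other controls.

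Zbtb40, a zinc finger gene, had a log2 fold change of −0.97, Pym1, a partner of the exon junction complex, −1.04, and Rufy1, an endosomal protein gene, −0.72. In the low-Slc6a3 libraries alone these were −0.53, −0.41 and −0.38, and in the high-Slc6a3 libraries alone −1.11, −1.23 and −0.82. After the GC and length correction they were −0.96, −0.34 and −0.51. A pair of low genes completed the set. AC144408.3 had 0 counts in all 3 MPTP+PF4 libraries and 0.168, 0.362 and 0.496 CPM in controls, near the level of 3 counts, so no fold is given. Xlr4b, of a multicopy X-linked family, was at 0.505, 1.66 and 1.52 CPM in controls, against 0.0615, 0.115 and 0.1004 CPM with MPTP+PF4, at or near that level. The groups did not overlap for any of the 20 genes.

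**Figure D4:**
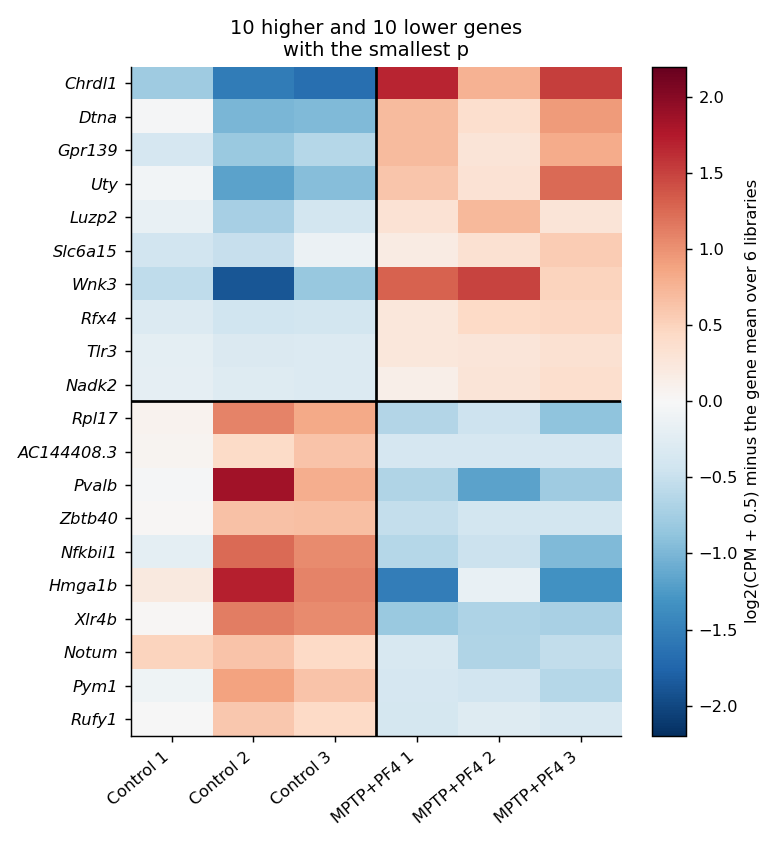
Log2(CPM + 0.5) minus the gene's mean over the 6 libraries, for the 10 genes with the smallest p in each direction (higher above the line, lower below), by library. Control 1 is closer to the MPTP+PF4 libraries than Controls 2 and 3 are in every row but those of Slc6a15 and Notum.

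The dopaminergic genes did not separate the groups. Their levels followed the split of the libraries described above, which crosses the groups. They therefore cannot check the toxin here, and neither can their permutation test. Th, which makes the dopamine precursor, was at 7.49, 195 and 176 CPM in controls, against 4.95, 51.7 and 7.10 CPM with MPTP+PF4. Control 1 lay inside the MPTP+PF4 range. The log2 fold change was −2.57 (SE 1.20) for Th, −3.42 (SE 2.30) for Slc6a3, −2.29 (SE 0.959) for the vesicular transporter Slc18a2 and −1.97 (SE 0.892) for Ddc. By exact two-sided permutation, p was 0.2 for Th and 0.3 for Slc6a3, Slc18a2 and Ddc (adjusted p = 0.343 for each). In the low-Slc6a3 libraries alone the log2 fold changes of these 4 genes were −0.31, −0.09, 0.17 and 0.01. In the high-Slc6a3 libraries alone they were −1.85, −2.44, −1.77 and −1.49. Without MPTP+PF4 2 they were −4.38, −9.94, −3.44 and −2.99. Of 22 dopaminergic genes, 18 were below 0 with a median of −1.60 (−3.94 without MPTP+PF4 2). All 14 striatal genes were above 0 with a median of 1.57 (4.78 without Control 1). The groups of 0 members of either list separated. The medians were −0.09 and 0.69 in the low-Slc6a3 libraries alone, and −1.38 and 0.87 in the high-Slc6a3 libraries alone.

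The transcript of Pf4 itself was low, at 0.280, 2.53 and 0.441 CPM in controls, against 0.154, 0.831 and 0.167 CPM with MPTP+PF4 (exact two-sided permutation p = 0.5). Injected protein is not measured by RNA sequencing. Without Control 2 its log2 fold change turned from −1.47 to 0.10. Haemoglobin gene Hbb-bs was at 78.4, 2079 and 231 CPM in controls, against 140, 27.5 and 73.1 CPM with MPTP+PF4, so Control 2 was also highest for blood transcripts. The part of blood in the Pf4 level was not tested. Of 10 genes reported as PF4 receptors or binding partners, 8 were tested with a median of −0.13 (0.06 without Control 2, −0.34 without MPTP+PF4 2). Cxcr3, the best-known chemokine receptor for PF4, did not pass the low-count filter.

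Among glia, mature oligodendrocyte and myelin genes were described first. Of 18 tested, 16 were below 0 with a median of −0.47, and none passed an adjusted p of 0.05. The groups did not overlap for 6 (33.3% of the list, against 12.4% of all genes in either direction and 6.78% lower): Mog, Mbp, Mag, Mobp, Opalin and Cnp. Mog, a glycoprotein of the outer myelin surface, was at 168, 213 and 207 CPM in controls, against 143, 114 and 158 CPM with MPTP+PF4 (log2 fold change −0.50, SE 0.254). Mbp, myelin basic protein, had −0.75 (SE 0.297), and Cnp, an enzyme of non-compact myelin, −0.73 (SE 0.272). The median stayed below 0 on both sides of the Slc6a3 split, at −0.27 in the low-Slc6a3 and −0.42 in the high-Slc6a3 libraries alone. It was −0.31 after the GC and length correction and −0.31 without Control 2.

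Microglial identity genes were above 0 for 13 of 18, with a median of 0.31 (0.12 without Control 3, 0.35 in the low-Slc6a3 and 0.13 in the high-Slc6a3 libraries alone). In 4 members, among them Cx3cr1, Csf1r and Fcrls, the groups did not overlap, all higher. They made up 22.2% of the list, against 12.4% of all genes in either direction and 5.61% higher. Cx3cr1, the fractalkine receptor, was at 35.6, 26.7 and 23.7 CPM in controls, against 55.8, 36.1 and 56.3 CPM with MPTP+PF4 (log2 fold change 0.78, SE 0.253). Control 1 and MPTP+PF4 2 nearly met. Tmem119, another homeostatic marker, overlapped at 22.7, 23.96 and 16.2 CPM against 26.96, 17.6 and 21.1 CPM. Inflammatory genes, of which 15 were tested, had a median of 0.45, which was 0.14 without MPTP+PF4 2, 0.12 in the low-Slc6a3 and 0.69 in the high-Slc6a3 libraries alone. Nlrp3, Tlr4 and Nfkb1 were higher without overlap, at low levels for Nlrp3 and Tlr4. They made up 20% of the list, against 12.4% of all genes in either direction and 5.61% higher. Nfkb1 was at 16.9, 15.1 and 13.9 CPM in controls, against 18.2, 20.6 and 18.5 CPM with MPTP+PF4 (0.32, SE 0.152). Astrocyte identity genes had a median of −0.14 (−0.27 without Control 1, 0.04 without Control 2). Reactive astrocyte genes had −0.08 (−0.74 without MPTP+PF4 2, 0.14 without Control 2).

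Vascular genes tended to lie below 0. Of 16 endothelial genes, 13 were below 0 with a median of −0.30 (−0.11 without Control 2, −0.11 in the low-Slc6a3 and −0.32 in the high-Slc6a3 libraries alone). Ly6c1, Tek, Slc2a1 and Tie1 were lower without overlap. They made up 25% of the list, against 12.4% of all genes in either direction and 6.78% lower. Ly6c1, a surface protein of brain endothelium, was at 70.8, 128 and 89.7 CPM in controls, against 58.8, 60.6 and 46.2 CPM with MPTP+PF4 (log2 fold change −0.80, SE 0.255). Meningeal fibroblast genes were below 0 for 12 of 12, with a median of −0.94 that became 0.18 without Control 2. The choroid plexus marker Ttr reached 944 CPM in Control 1, 5.15 CPM in Control 2 and 0.221 CPM in Control 3, against 111, 47.7 and 27.6 CPM with MPTP+PF4. The hypothalamic neuropeptide Pmch was at 491 CPM in MPTP+PF4 2 and 0.301 to 48.7 CPM in the other libraries. Tissue neighbouring the midbrain was thus measured at different levels in single libraries, and its part in the results above was not tested.

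Activity-related and clock genes lay mostly above 0. Of 16 immediate early genes, 13 were above 0 with a median of 0.92 (1.58 without Control 1), and Fos and Dusp1 did not overlap (12.5%, close to the 12.4% of all genes). Fos was at 8.27, 7.26 and 6.17 CPM in controls, against 13.3, 10.2 and 10.8 CPM with MPTP+PF4 (log2 fold change 0.66, SE 0.230). Arc, a synaptic plasticity gene, overlapped, at 38.4, 9.46 and 15.7 CPM against 92.6, 19.7 and 86.9 CPM. Of 18 circadian clock genes, 17 were above 0 with a median of 0.44, and Clock and Rorb separated (11.1%, below the 12.4% of all genes). Both list medians kept their sign in the low-Slc6a3 libraries alone (0.71 and 0.33) and in the high-Slc6a3 libraries alone (0.51 and 0.41).

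**Figure D5:**
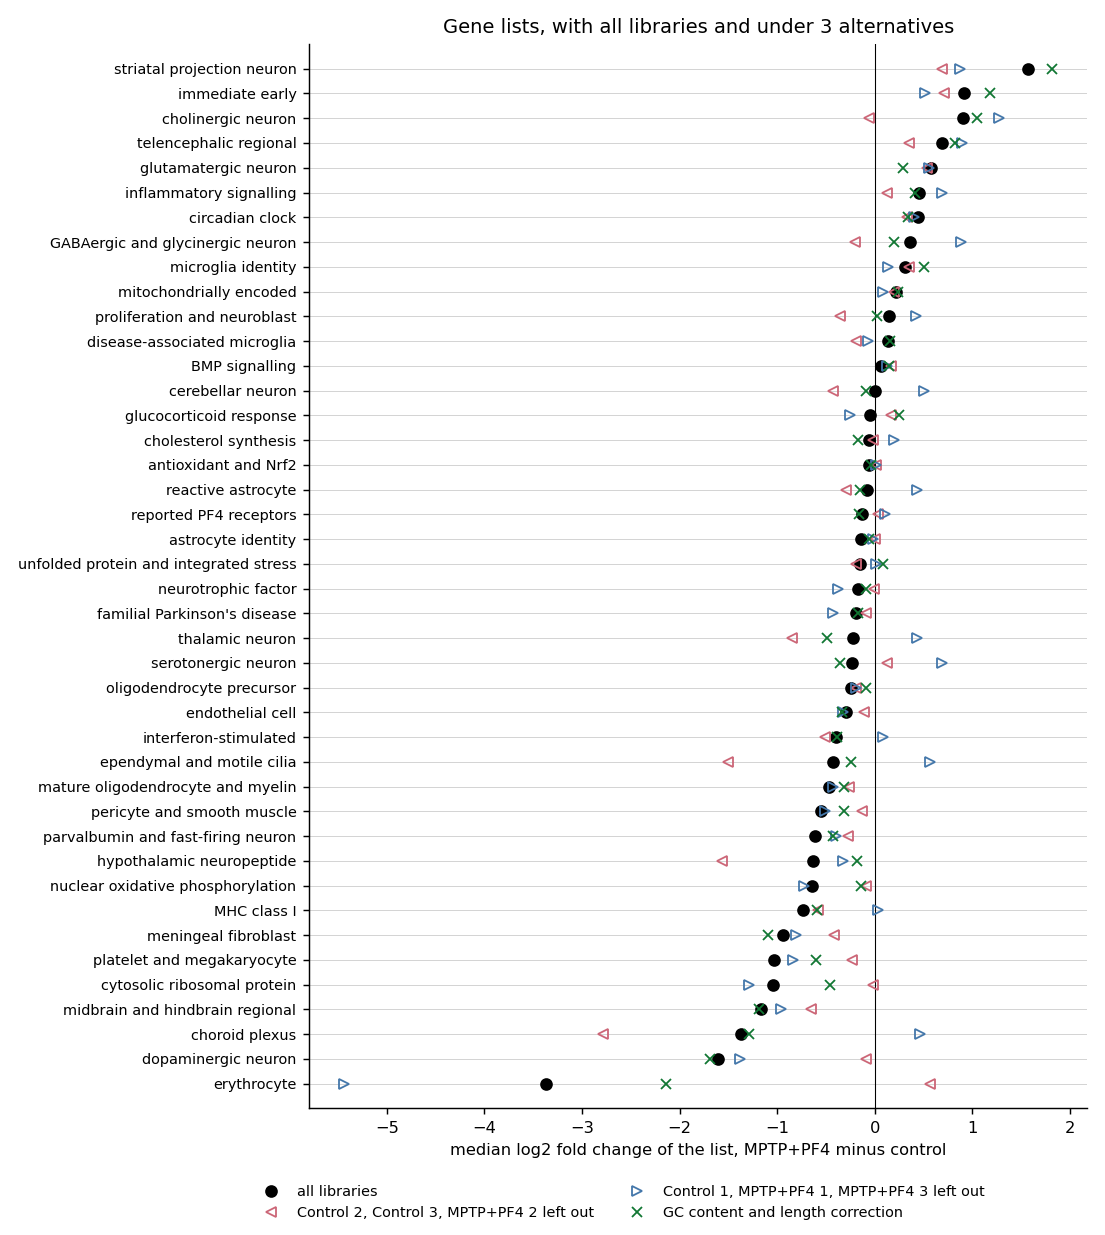
Median log2 fold change (MPTP+PF4 minus control) of 42 gene lists, with all libraries (filled circle), in the low-Slc6a3 libraries alone (left triangle), in the high-Slc6a3 libraries alone (right triangle) and after correction for GC content and length (cross). The ribosomal list lies at −1.04, −0.01, −1.29 and −0.46 in that order, and the myelin list at −0.47, −0.27, −0.42 and −0.31.

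Values with MPTP alone are given beside these for the genes that lead the comparison. Slc6a3 was at 0.055, 0.958 and 0.122 CPM in MPTP 1 to 3, all on the low side of the split. A difference in sampled tissue therefore cannot be told apart from treatment in these values. The MPTP+PF4 and MPTP groups share the controls, so their differences from control are not independent of each other. Chrdl1 was at 12.8, 5.01 and 8.92 CPM with MPTP alone, and MPTP+PF4 minus MPTP was 0.27 (SE 0.442) on the log2 scale. Pvalb was at 50.3, 33.4 and 42.6 CPM with MPTP alone (0.42, SE 0.415, for MPTP+PF4 minus MPTP). Rpl17 was at 59.5, 42.9 and 67.7 CPM (−0.37, SE 0.277). For each of these 3 genes the MPTP and MPTP+PF4 libraries overlapped.

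Il33, a cytokine of oligodendrocytes and astrocytes, gave a different picture. It was at 119, 119.7 and 132 CPM in controls, 104, 101 and 127 CPM with MPTP+PF4, and 61.4, 64.1 and 56.3 CPM with MPTP alone. The log2 fold change was −0.16 (SE 0.146) for MPTP+PF4 minus control and −1.03 (SE 0.148) for MPTP minus control. Its MPTP+PF4 libraries overlapped with the controls, and both sets lay above all 3 MPTP libraries. Gpr139 was at 7.56, 10.5 and 15.4 CPM with MPTP alone, overlapping with both the controls and the MPTP+PF4 libraries (0.74, SE 0.286, for MPTP+PF4 minus MPTP).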

How the data were processed

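RNA of 9 mouse tissue samples labelled mesencephalon was sequenced, from 1 µg of total RNA each per the labels. The authors deposited 1 table of raw counts and FPKM by gene, per the file headers; FPKM was used only to describe levels of Chrdl1 and Id1 per transcript length. The build mm9 is named in the submitters' processing notes; aligner, counter and strandedness are not given in the sources used here. From 29001 lines, 10 broken ones were left out. The test on counts was edgeR's (version 4.0.16, R version 4.3.3; quasi-likelihood, robust, TMM, filterByExpr, 9 libraries in 1 fit on the group, Benjamini-Hochberg over 17285 genes, biological coefficient of variation 0.394, threshold 0.05). CPM uses TMM-scaled totals. DESeq2 1.42.0 and limma 3.58.1 (voom with sample weights) were alternatives, with other scalings, filters, the 6 libraries alone, a replicate block and each library left out. The fits were tested on simulated data. No 2 libraries agreed within sampling noise (lowest chi-square per degree of freedom 36.1).

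Named genes were Chrdl1, Rpl17, Pvalb, Th, Slc6a3, Slc18a2, Ddc, Pf4 and Il33, the 10 with the smallest unadjusted p in each direction, and the first tested members of each list described; members whose groups did not overlap were added after their values were seen. Genes and lists were chosen with earlier results of these data known, so list counts and medians are descriptions with no test. Positions, lengths and GC content come from GENCODE (GRCm38), not the submitters' build, and no coordinate was converted. Of the words in the authors' deposited table, only the call (higher or lower) was used, and which group its up and down refer to was read from the counts. Some list members are not reported here.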

Additional observations from a re-analysis of the deposited data

How the results depend on the processing

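Without Control 1 edgeR passed 4539 genes at an adjusted p of 0.05 (2194 higher, 2345 lower). Both controls left in that fit are high in Slc6a3, so the Slc6a3 split largely follows the groups there. Over the 6 settings that leave out 1 library, counts ran from 0 to 4539 in all, 0 to 2194 higher and 0 to 2345 lower. Leaving out any 1 of the other 5 libraries gave a count of 0. DESeq2 passed 10 genes, 5 in each direction. Weighted limma voom passed 9395 (4633 higher, 4762 lower). With Control 2, Control 3 and MPTP+PF4 2 left out, 1 gene passed (1 higher, 0 lower). With Control 1, MPTP+PF4 1 and MPTP+PF4 3 left out, 4 passed (1 higher, 3 lower). The cause of these differences was not tested. With the GC and length correction 0 of 15382 genes passed. With the replicate block the count was 0, with 1752 genes higher and 2107 lower at an unadjusted p under 0.05. Deviations from the group mean of same-numbered Control and MPTP+PF4 libraries correlated at 0.145, 0.435 and −0.343. For Control and MPTP the values were 0.137, 0.193 and −0.165, and for MPTP and MPTP+PF4 0.132, 0.600 and 0.526. Control and MPTP+PF4 each hold both sides of the Slc6a3 split, so these values cannot tell whether replicate numbers pair the samples. In the 6 libraries alone 368 genes were higher and 1279 lower at an unadjusted p under 0.05, against 1080 and 2091 with all 9. Of 26 named genes, 3 turned direction under an alternative: Slc18a2 (0.17) and Ddc (0.014) with Control 2, Control 3 and MPTP+PF4 2 left out, and Pf4 without Control 2 (0.10; −2.72 to 0.10 over the single libraries left out). Past the threshold were 25 of 26 named genes with voom, 22 without Control 1 and 6 with DESeq2. Of the list medians under the alternatives, 654 moved by less than the spread between replicates and 102 by more. That spread contains the Slc6a3 split within groups, so the 654 do not measure stability. The dopaminergic median counts among them, though it went from −1.60 to −0.09 in the low-Slc6a3 libraries alone. At this depth transcripts below 3 counts in a library could not be told from 0.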

Other observations

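Some genes were nearly missing from 1 library while present in the other 8, by a rule chosen after seeing the data: at least 10 CPM (scaled to library totals) in 8 libraries and no more than 1/8 of the lowest of these in the remaining one. Of 9044 genes that could meet it, 32 did: 21 in Control 2, 5 in Control 3, 2 each in MPTP+PF4 2 and MPTP 3, and 1 each in Control 1 and MPTP+PF4 3. Scn2a, a neuronal sodium channel, was at 0.637 CPM in Control 2 and 86.0 to 279 CPM elsewhere. Irs1, of insulin signalling, was at 0 there and at 13.3 to 27.4 CPM elsewhere. Twsg1, an extracellular BMP-binding protein outside the list above, was at 0.555 CPM in Control 3 and 35.3 to 52.1 CPM in the other 8 libraries. Kcna2 was at 5.44 CPM in MPTP+PF4 2 and 148 to 424 CPM in the others.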
